A study of Mus musculus with 16 samples.

Results

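Cells of the infarcted cortex were compared between MCAO+AS-exos mice, which received plasma exosomes of the atherosclerosis group, and MCAO+Ctrl-exos mice, which received control exosomes. MCAO, occlusion of the middle cerebral artery, is a model of ischemic stroke. The members were the 4 MCAO+AS-exos and 4 MCAO+Ctrl-exos libraries, 8 of the 16 in the series, taken from the sample titles; the other groups were MCAO without exosomes and Sham, without occlusion. All recipients were C57BL/6 mice. Both exosome groups had MCAO and then 150 µg of exosomes into a tail vein, repeated at 3-day intervals from surgery onward. The exosomes of both groups came from the plasma of Apoe knockout mice on a normal diet or on a western diet, which was fed for 12 weeks to produce atherosclerosis. Which of the diets stands behind each exosome code is not stated in the labels. The age of the mice, the time of sorting and whether each library is a separate mouse are not given in the sources used here, so p-values measure the spread between these libraries, which may be technical. The sequenced RNA, amplified as cDNA, came from cells sorted by CD45 and CD11b staining and labelled as microglia. Values are read as FPKM, fragments scaled for transcript length and for the total of the library, and no counts are given, so the depth is unknown.

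Exosomes are small membrane vesicles that carry proteins, lipids and RNA between cells, and phagocytes take them up readily. After a stroke the cortex holds resident microglia together with macrophages that arise from blood monocytes, and neutrophils. CD45 and CD11b are present on all of these. The title of the series names ferroptosis, a form of cell death driven by iron-dependent peroxidation of membrane lipids. GPX4 restrains it by reducing lipid peroxides with glutathione, for which the cystine carrier SLC7A11 supplies the precursor, and ACSL4 loads membranes with the fatty acids that peroxidise.

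Libraries of the MCAO+AS-exos group did not form a single group. Replicates 1 to 3 correlated with each other across genes at r = 0.979 to 0.985, while replicate 4 correlated with them at 0.905 to 0.921 and with the MCAO+Ctrl-exos libraries at 0.921 to 0.931. MCAO+Ctrl-exos libraries correlated among themselves at 0.909 to 0.937. The first principal component of the 8 libraries, with 39.8% of the variance, gave MCAO+AS-exos replicates 1 to 3 scores between 46.0 and 59.0 and replicate 4 a score of -27.0, with the MCAO+Ctrl-exos libraries at -47.6 to -22.0. The median SD of a gene over MCAO+AS-exos replicates 1 to 3 was 0.22 on the log2 scale, against 0.40 over all 4, and 0.49 over the 4 MCAO+Ctrl-exos libraries. Why replicate 4 stands apart, and why replicates 1 to 3 are so alike, was not tested. Counts of called genes are therefore given with and without replicate 4. Totals of 825744 to 888937 FPKM in MCAO+AS-exos libraries and 784006 to 983648 FPKM in MCAO+Ctrl-exos libraries overlapped, and 9415 to 9696 and 9267 to 9689 genes reached 1 FPKM in these groups.

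**Figure D1:**
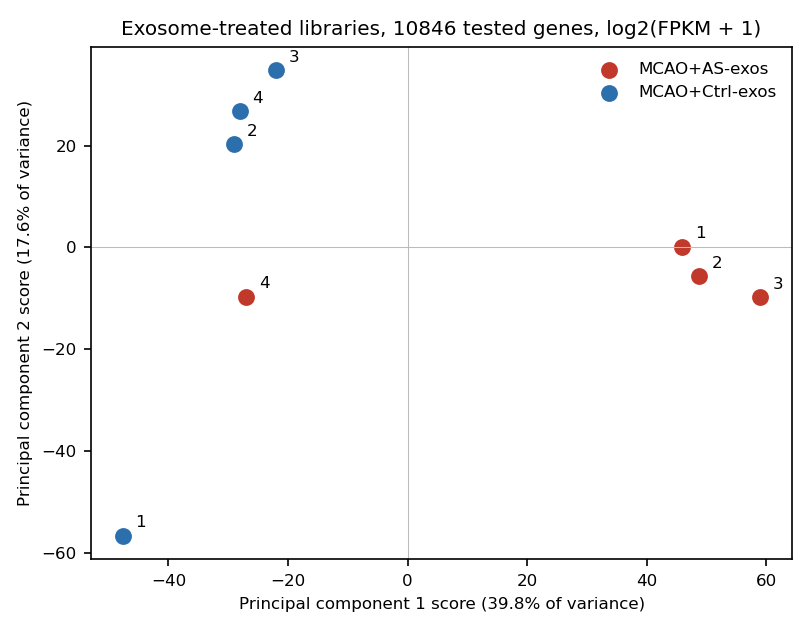
Scores of the 8 exosome libraries on the first (x axis, 39.8% of variance) and second (y axis, 17.6% of variance) principal component of log2(FPKM + 1); each point is a library, red for MCAO+AS-exos and blue for MCAO+Ctrl-exos, with its replicate number. MCAO+AS-exos replicates 1 to 3 lie at 46.0 or above on the x axis and replicate 4 lies at -27.0, between the MCAO+Ctrl-exos libraries.

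In the MCAO+AS-exos libraries the sorted cells had more RNA of the sialic acid-binding surface receptors Cd33 and Siglece and the protease gene Ctsc. RNA of the iron-sequestering protein gene Lcn2 and the cold-inducible gene Cirbp was also higher. RNA of the transcription factor Maf, the cohesin loader Nipbl, the respiratory chain genes Uqcr11 and Ndufa1 and the chaperone gene Hspa5 was lower. Of 10846 genes tested, 31 (0.286%) were past the threshold of limma's test, a p of 0.05 after Benjamini-Hochberg adjustment. With AS-exos 17 were higher (0.157%) and 14 lower (0.129%). At an unadjusted p below 0.05 there were 2127 genes. The median log2 fold change of all tested genes was -0.08. All values of one group lay above all of the other for 1107 genes (10.2%), 563 of them higher (5.19%) and 544 lower (5.02%), and for 30 of the 31. In bulk RNA, fewer cells of a type and less RNA per cell cannot be told apart.

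Without MCAO+AS-exos replicate 4, 1297 genes (12.0%) passed, 382 higher (3.52%) and 915 lower (8.44%), and all 31 genes were among them, at adjusted p of 2.38e-08 to 0.00835. The log2 fold changes were then 2.63 for Cd33, 2.16 for Siglece, 1.96 for Ctsc, 4.44 for Lcn2 and 2.57 for Cirbp, and -2.12 for Maf, -2.01 for Nipbl, -2.72 for Ube2s, -1.25 for Uqcr11, -1.23 for Ndufa1 and -0.90 for Hspa5. The median of all genes was then -0.12. Over these 1297 genes, on a scale with 0 at the MCAO+Ctrl-exos mean and 1 at the mean of MCAO+AS-exos replicates 1 to 3, replicate 4 lay at a median of 0.086 and was nearer to its own group in 168 genes. The 4 MCAO libraries, from mice that received no exosomes, lay at medians of -0.038 to 0.096. The genes were chosen by replicates 1 to 3, so these positions describe replicate 4 and are no test. Replicate 4 was the MCAO+AS-exos library most like the MCAO+Ctrl-exos libraries. Calls, fold changes and p-values of the fit without it are therefore no added support for a difference, here and in the gene lists below. Leaving out other libraries mostly lowered the count: 3 genes passed without MCAO+AS-exos replicate 1, 1 each without replicates 2 and 3, and 3, 15 and 9 without MCAO+Ctrl-exos replicates 2, 3 and 4, while 80 passed without MCAO+Ctrl-exos replicate 1. A fit of the 8 exosome libraries on their own called 9 genes, 3 of them among the 31. All 31 kept their direction in each of these fits.

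CD33 and SIGLEC-E are receptors of myeloid cells that bind sialic acid, and SIGLEC-E dampens activation. Cd33 had 49.25, 70.6, 104 and 36.3 FPKM in the MCAO+AS-exos libraries, against 6.65, 18.3, 8.20 and 12.5 FPKM in the MCAO+Ctrl-exos libraries. Every MCAO+AS-exos value was above every MCAO+Ctrl-exos value, and the log2 fold change was 2.40 ± 0.38 (± SE, limma adjusted p = 0.0221). Siglece had 13.2, 18.3, 30.6 and 12.8 FPKM in the MCAO+AS-exos libraries, against 3.10, 2.76, 3.99 and 4.73 FPKM in the MCAO+Ctrl-exos libraries, a log2 fold change of 2.02 ± 0.35 (limma adjusted p = 0.0236). Here too the groups were apart, with replicate 4 as the lowest MCAO+AS-exos value of both genes. P2ry13, a nucleotide receptor of resting microglia, had 32.2, 38.4, 53.2 and 25.96 FPKM in the MCAO+AS-exos libraries, against 5.63, 6.23, 25.1 and 9.10 FPKM in the MCAO+Ctrl-exos libraries (log2 fold change 1.81 ± 0.38, limma adjusted p = 0.0451). The lowest MCAO+AS-exos value and the highest MCAO+Ctrl-exos value of P2ry13 nearly met. Cr1l, which encodes a membrane regulator of complement, averaged 100.1 ± 24.0 FPKM with AS-exos and 36.3 ± 11.2 FPKM with Ctrl-exos (SD, n = 4 each).

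Ctsc encodes cathepsin C, the lysosomal protease that activates granule serine proteases. It had 506, 495, 568 and 227 FPKM in the MCAO+AS-exos libraries, against 98.9, 141, 153 and 149 FPKM in the MCAO+Ctrl-exos libraries. The log2 fold change was 1.66 ± 0.28 (limma adjusted p = 0.0223), with replicates 1 to 3 close together and replicate 4 between them and the MCAO+Ctrl-exos values. Cirbp, which encodes an RNA-binding protein induced by mild cold, had 70.6, 99.1, 111 and 52.55 FPKM in the MCAO+AS-exos libraries, against 12.9, 27.4, 24.9 and 4.89 FPKM in the MCAO+Ctrl-exos libraries (log2 fold change 2.37 ± 0.43, limma adjusted p = 0.0285). Its relative Rbm3 had 795, 882, 913 and 679 FPKM with AS-exos, against 413.5, 294, 323 and 575 FPKM with Ctrl-exos. The values did not overlap, and the log2 fold change of 1.06 ± 0.23 missed the threshold at an adjusted p of 0.0502. Without replicate 4 Rbm3 passed (limma adjusted p = 0.00582). MCAO libraries had 509 to 927 FPKM of Rbm3 and 20.5 to 36.2 FPKM of Cirbp, so the genes did not share a pattern against MCAO. Of the other genes called higher, Tmem159, which encodes a lipid droplet assembly factor, averaged 18.1 ± 2.61 FPKM with AS-exos and 4.50 ± 2.45 FPKM with Ctrl-exos. Dpep2, a membrane dipeptidase gene, averaged 173 ± 49.9 FPKM with AS-exos and 71.9 ± 11.4 FPKM with Ctrl-exos. Arhgdib, which encodes a regulator of the cytoskeleton in blood cells, averaged 962 ± 270.2 FPKM with AS-exos and 434 ± 29.3 FPKM with Ctrl-exos. Tmem181a (log2 fold change 1.77), Trmt10c (2.10), Tmem59 (1.17), Chil1 (2.77), Rasl2-9 (1.77) and Srd5a1 (1.28) were also higher. Rasl2-9 and Srd5a1 averaged 2.80 and 1.48 FPKM with AS-exos, near the lower limit of 1 FPKM.

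**Figure D2:**
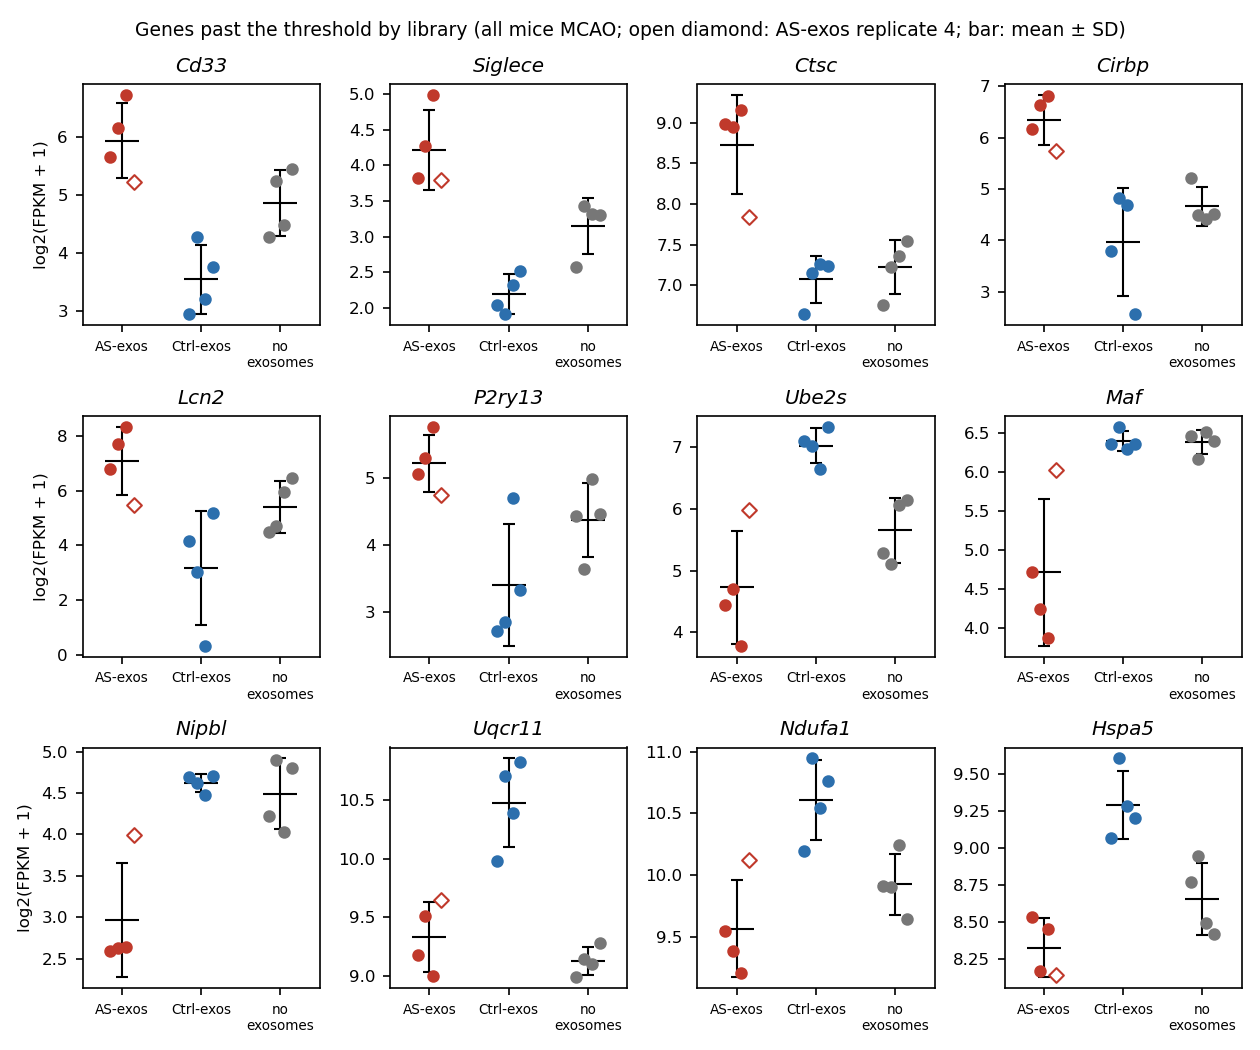
FPKM on the scale log2(FPKM + 1) (y axis) of 12 genes past the threshold in the MCAO+AS-exos, MCAO+Ctrl-exos and MCAO libraries (x axis); points are libraries, the open diamond is MCAO+AS-exos replicate 4, and bars show mean ± SD of 4. No exosome-treated values overlap between the groups, and replicate 4 is the MCAO+AS-exos value nearest to the MCAO+Ctrl-exos libraries in all genes shown except Hspa5.

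Among the genes called lower, Maf encodes a transcription factor of resident macrophages and microglia. It had 25.25, 18.0, 13.6 and 64.25 FPKM in the MCAO+AS-exos libraries, against 81.5, 94.65, 77.6 and 81.0 FPKM in the MCAO+Ctrl-exos libraries (log2 fold change -1.69 ± 0.34, limma adjusted p = 0.0420). Nipbl, whose product loads cohesin onto DNA, had 5.03, 5.17, 5.21 and 14.9 FPKM in the MCAO+AS-exos libraries, against 24.8, 23.6, 21.2 and 25.1 FPKM in the MCAO+Ctrl-exos libraries (-1.66 ± 0.34, limma adjusted p = 0.0429). In both genes replicates 1 to 3 were low and replicate 4 lay closer to the MCAO+Ctrl-exos libraries. Ube2s, which encodes a ubiquitin-conjugating enzyme of the anaphase-promoting complex, had 20.7, 25.1, 12.7 and 62.2 FPKM in the MCAO+AS-exos libraries, against 137, 128, 99.6 and 160.1 FPKM in the MCAO+Ctrl-exos libraries (-2.30 ± 0.38, limma adjusted p = 0.0223). Hras, the gene of a small GTPase of growth factor signalling, averaged 7.75 ± 1.46 FPKM with AS-exos and 42.8 ± 16.7 FPKM with Ctrl-exos, a log2 fold change of -2.25 ± 0.47 (limma adjusted p = 0.0438). Ptov1 (-1.90 ± 0.36) and Trappc4 (-1.12 ± 0.22), a gene of a vesicle tethering complex, were lower as well, as were Supt16 and Ccdc152, described next, and 3 predicted genes.

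Several of the 31 genes overlap a neighbour on the opposite strand of the genome. Genes were compared from start to end, introns included, so an overlap need not lie in exons. The sources used here do not say whether counting used the strand. By the GENCODE M21 annotation, 10 of the 28 called genes it holds (35.7%) overlapped another gene of the table on the opposite strand, against 1941 of 10622 tested genes (18.3%). Rpgrip1 had the smallest p of all genes and was the only gene called in all 8 fits that left out a library. It had 12.8, 14.4, 9.28 and 17.7 FPKM in the MCAO+AS-exos libraries, against 0, 0.30, 0.64 and 0.20 FPKM in the MCAO+Ctrl-exos libraries, with a log2 fold change of 3.49 ± 0.36 (limma adjusted p = 8.14e-05). MCAO libraries had 19.8 to 41.0 FPKM, so the MCAO+Ctrl-exos libraries were the low ones. Supt16, its opposite-strand neighbour and the gene of a histone chaperone subunit, ran the other way, with 7.65, 7.39, 9.78 and 5.66 FPKM in the MCAO+AS-exos libraries, against 31.5, 20.4, 27.6 and 20.4 FPKM in the MCAO+Ctrl-exos libraries (-1.59 ± 0.32, limma adjusted p = 0.0429).

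Ccdc152, chosen for mention after its values were seen, had 3.59, 2.29, 2.54 and 838 FPKM in the MCAO+AS-exos libraries, against 863, 806, 622 and 1179 FPKM in the MCAO+Ctrl-exos libraries. Replicate 4 alone was at the MCAO+Ctrl-exos level, and Ccdc152 was the only called gene whose groups overlapped (log2 fold change -5.86 ± 1.16, limma adjusted p = 0.0392). Its overlapping neighbour Selenop, the gene of a selenium transport protein, had 1814, 1114, 1427 and 836 FPKM in the MCAO+AS-exos libraries, against 968, 418, 646 and 698 FPKM in the MCAO+Ctrl-exos libraries (0.93 ± 0.28, limma adjusted p = 0.0869). The values of such pairs are uncertain where exons overlap, which was not examined, since the share of reads assigned to each gene is not known. Ube2s overlaps Rpl28, Trappc4 overlaps Rps25, Dpep2 overlaps Dus2, P2ry13 overlaps Med12l, Tmem59 overlaps Tceanc2, Tmem181a overlaps Dynlt1a and Srd5a1 overlaps Nsun2.

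**Figure D3:**
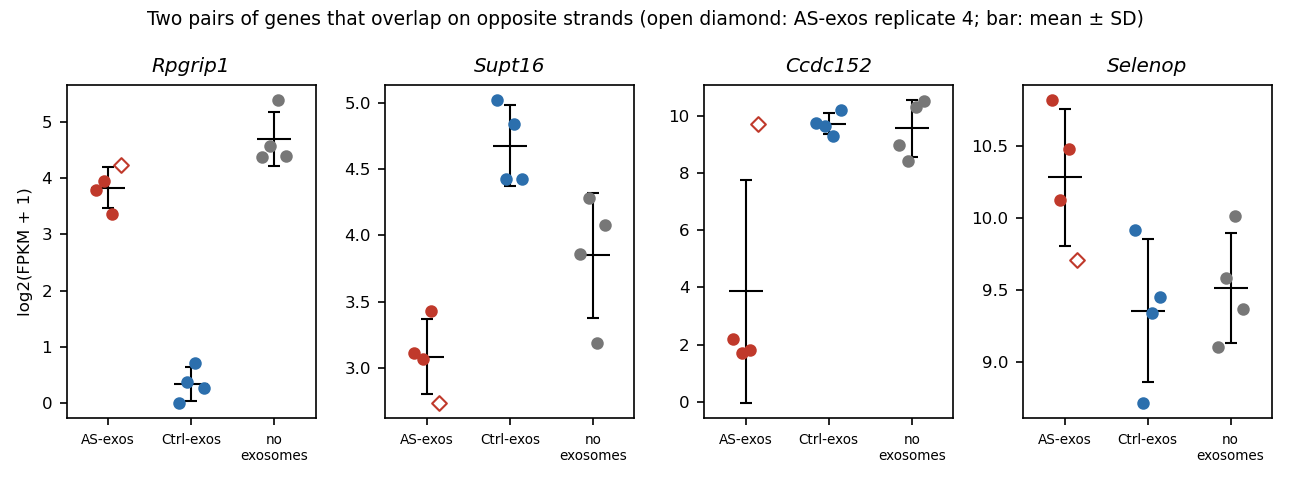
Levels on the scale log2(FPKM + 1) (y axis) of 2 gene pairs that overlap on opposite strands, by library of the MCAO+AS-exos, MCAO+Ctrl-exos and MCAO groups (x axis); the open diamond is MCAO+AS-exos replicate 4 and bars show mean ± SD of 4. Rpgrip1 is low in the MCAO+Ctrl-exos libraries, where Supt16 is high, and Ccdc152 is below 4 FPKM in MCAO+AS-exos replicates 1 to 3 alone.

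Hspa5 encodes BiP, the chief chaperone of the endoplasmic reticulum and a target of the unfolded protein response, in which ATF6 and other factors bind ER stress elements in promoters. It was lower in all 4 MCAO+AS-exos libraries, with 371, 288, 350.5 and 282 FPKM, against 535, 777, 622 and 589 FPKM in the MCAO+Ctrl-exos libraries (log2 fold change -0.96 ± 0.19, limma adjusted p = 0.0340). Replicate 4 was the lowest of all 8 values here. MCAO libraries, with 342 to 492 FPKM, had a mean nearer to that of the MCAO+AS-exos libraries (log2 fold change of AS-exos against MCAO -0.33, limma adjusted p = 0.269). Hsp90b1, which encodes the chaperone GRP94, had 183, 186, 199 and 362 FPKM with AS-exos, against 426, 528, 447 and 369 FPKM with Ctrl-exos; the groups did not overlap, at -0.97 ± 0.22 and an adjusted p of 0.0502. Pdia3, an ER disulfide isomerase gene, had the other sign, with 423, 454, 514 and 271 FPKM with AS-exos against 297, 243, 213 and 212 FPKM with Ctrl-exos (0.76 ± 0.21, limma adjusted p = 0.0802). The promoters of these 3 genes, from 250 bases before to 50 after the start in RefSeq (GRCm38.p6, another build than that of the submitters' processing notes), are shown because the members differ in sign. Capitals mark both ends of the full ER stress element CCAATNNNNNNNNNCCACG on either strand.
Hspa5, chr2:34771840-34772139, plus strand: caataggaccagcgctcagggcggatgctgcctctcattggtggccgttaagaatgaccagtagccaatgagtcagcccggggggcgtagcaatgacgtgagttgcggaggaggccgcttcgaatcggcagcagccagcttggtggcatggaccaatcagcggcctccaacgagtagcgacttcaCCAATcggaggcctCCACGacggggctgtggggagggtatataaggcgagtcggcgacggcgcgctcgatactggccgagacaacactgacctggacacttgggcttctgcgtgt
Hsp90b1, chr10:86705395-86705694, minus strand: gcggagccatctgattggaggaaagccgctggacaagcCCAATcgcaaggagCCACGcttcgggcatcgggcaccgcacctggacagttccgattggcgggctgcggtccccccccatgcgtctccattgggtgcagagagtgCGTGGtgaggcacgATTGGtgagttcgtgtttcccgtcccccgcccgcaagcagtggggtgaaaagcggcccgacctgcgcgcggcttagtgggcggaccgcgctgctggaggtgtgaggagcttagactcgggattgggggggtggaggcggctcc
Pdia3, chr2:121413652-121413951, plus strand: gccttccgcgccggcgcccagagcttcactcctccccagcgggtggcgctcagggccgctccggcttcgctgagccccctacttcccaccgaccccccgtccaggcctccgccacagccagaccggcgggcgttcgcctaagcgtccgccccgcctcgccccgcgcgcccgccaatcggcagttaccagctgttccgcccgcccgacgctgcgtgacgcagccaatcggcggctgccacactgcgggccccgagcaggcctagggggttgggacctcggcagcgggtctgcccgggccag
Hspa5 holds 1 such element, Hsp90b1 holds 2, and no match was found in the Pdia3 window. Canx, Calr and Pdia6, not shown, hold 1 each, and no match was found for Pdia4. In each of these genes the groups overlapped, as for Pdia6 with 254 to 299 FPKM with AS-exos and 277 to 351 FPKM with Ctrl-exos. Whether the element bears on the direction of change was not tested. The element occurs in 37 of 27025 mouse promoters of this length (0.137%) and in 7 of the 23 tested members of the unfolded protein response list that have a promoter there (30.4%). Of the 25 tested members of that list, Hspa5 alone passed, 4 were lower without overlap (Hspa5, Hsp90b1, Dnajc3 and Creld2) and none was higher without overlap, beside 5.02% and 5.19% of all genes; the list median was -0.37. Without replicate 4, Hspa5, Hsp90b1, Canx and Edem1 passed lower and Pdia3 and Xbp1 passed higher, beside 8.44% and 3.52% of all genes, and the median was -0.21.

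The main genes of ferroptosis did not pass the test. Gpx4 had 971, 1028, 788 and 768 FPKM in the MCAO+AS-exos libraries, against 823, 1121, 1038 and 1601 FPKM in the MCAO+Ctrl-exos libraries, and the groups overlapped (log2 fold change -0.34 ± 0.22, limma adjusted p = 0.414). Slc7a11 was low in all 8 libraries, at 1.54 to 3.26 FPKM with AS-exos and 2.57 to 4.51 FPKM with Ctrl-exos (-0.38 ± 0.45, limma adjusted p = 0.673). Acsl4 had 7.05 to 11.6 FPKM with AS-exos and 7.07 to 18.6 FPKM with Ctrl-exos (-0.31 ± 0.35, limma adjusted p = 0.664). Lpcat3, whose product puts polyunsaturated fatty acids into phospholipids, had a log2 fold change of 0.61 ± 0.34, and Ptgs2, a common readout gene of ferroptosis, of -0.45 ± 0.42 (limma adjusted p = 0.323 and 0.585). Of 23 tested ferroptosis-protecting genes none passed, with or without replicate 4, at a median of -0.02 near that of all genes. Of 21 tested ferroptosis-promoting genes none passed with all libraries, at a median of 0.22. Without replicate 4, Alox5ap, the activator of 5-lipoxygenase, and Vdac3 passed higher. The transcription factor gene Bach1 and Keap1, a sensor that restrains NRF2, then passed lower. For all genes these shares were 3.52% higher and 8.44% lower. Alox5ap had 1661, 1512, 1559.9 and 1381 FPKM with AS-exos, against 911.5, 983, 1121.5 and 1142 FPKM with Ctrl-exos. Its groups did not overlap, and with all libraries its log2 fold change of 0.56 ± 0.16 had an adjusted p of 0.0807.

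Iron is stored in ferritin, whose chains Fth1 and Ftl1 encode, and released from it through the ferritin receptor NCOA4. Ftl1 had 33849.98, 31957, 25979 and 13324 FPKM in the MCAO+AS-exos libraries, against 17433, 22595, 23861 and 23821 FPKM in the MCAO+Ctrl-exos libraries. Replicates 1 to 3 lay above all MCAO+Ctrl-exos values and replicate 4 below them (log2 fold change 0.19 ± 0.25, limma adjusted p = 0.726). Fth1 had a log2 fold change of 0.09 ± 0.17. Ncoa4 had 31.8, 25.2, 39.1 and 33.2 FPKM with AS-exos, against 16.75, 16.9, 15.2 and 23.85 FPKM with Ctrl-exos, without overlap but at an adjusted p of 0.113. Hmox1, the heme-degrading enzyme gene, had 1599, 1943, 1615 and 647 FPKM with AS-exos, against 1246, 236, 330.4 and 614 FPKM with Ctrl-exos (1.44 ± 0.59, limma adjusted p = 0.189). The iron importer Tfrc (-0.64 ± 0.54) and exporter Slc40a1 (1.002 ± 0.685) did not pass. Lcn2, which binds bacterial iron carriers, rose, with 109.5, 209, 319 and 43.65 FPKM in the MCAO+AS-exos libraries, against 16.8, 7.21, 0.25 and 35.3 FPKM in the MCAO+Ctrl-exos libraries (3.90 ± 0.77, limma adjusted p = 0.0392). Lcn2 was the only one of 23 iron genes to pass, beside 0.157% of all genes called higher. Without replicate 4 Hfe was also higher, and Pcbp1 and Pcbp2, which encode iron chaperones, were lower. For all genes these shares were 3.52% higher and 8.44% lower. Nfe2l2, the gene of NRF2, had 84.0 to 102 FPKM with AS-exos and 52.3 to 83.2 FPKM with Ctrl-exos, without overlap but at a limma adjusted p of 0.266. None of 21 NRF2 targets and thioredoxin genes passed (median -0.02). Without replicate 4 G6pdx was higher, beside 3.52% of all genes.

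Lcn2 is also a neutrophil granule gene. Of 17 neutrophil markers 12 were in the table and 11 were tested. All 11 had a positive log2 fold change, at a median of 1.03, beside 4903 of all 10846 tested genes. Lcn2 was the only one called. Without replicate 4, S100a8, Mmp8, Il1r2 and Lcn2 passed higher, beside 3.52% of all genes. None of the 12 was at 0 in all 8 libraries. Ly6g, a surface marker that defines neutrophils and was too low to be tested, had 2.77 and 1.84 FPKM in MCAO+AS-exos replicates 1 and 3 and 9.25 FPKM in MCAO+Ctrl-exos replicate 2, and was at 0 in the other 5. The summed level of the 12 was 7250, 6620, 8350 and 3570 FPKM in the MCAO+AS-exos libraries, against 3750, 2800, 1900 and 2280 FPKM in the MCAO+Ctrl-exos libraries, and 1810 to 10200 FPKM in the MCAO libraries. MCAO+AS-exos replicate 4 lay below the highest MCAO+Ctrl-exos sum. S100a8, a calprotectin gene that made up most of the sum, had a log2 fold change of 1.33 ± 0.43 (limma adjusted p = 0.104). The part of neutrophil RNA in the results was not tested. The label of the cells was checked in the same way. Summed microglia markers were 1150 to 1750 FPKM with AS-exos and 1160 to 1260 FPKM with Ctrl-exos, against 21200 to 23700 FPKM in Sham libraries. Summed infiltrating monocyte markers were 7620 to 10400 FPKM with AS-exos and 6070 to 11300 FPKM with Ctrl-exos, against 34.4 to 163 FPKM in Sham libraries. The monocyte sum was above the microglia sum in all 8 libraries, so the cells are called sorted cells here. The sums are over 15 and 10 different genes and do not measure shares of cells. The microglial transcription factor gene Sall1 was below 1 FPKM in all 8.

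Border macrophage markers summed to 3290 to 5980 FPKM with AS-exos and 3950 to 4680 FPKM with Ctrl-exos. Dendritic cell markers summed to 102 to 206 FPKM with AS-exos and 124 to 204 FPKM with Ctrl-exos. Both ranges overlapped, and no member of either list passed with all libraries. Sums of T and NK cell markers (37.7 to 64.3 FPKM with AS-exos, 21.0 to 70.4 FPKM with Ctrl-exos), B cell markers (9.67 to 22.2 FPKM with AS-exos, 9.92 to 14.2 FPKM with Ctrl-exos), and astrocyte markers (6.74 to 16.1 FPKM with AS-exos, 1.40 to 6.49 FPKM with Ctrl-exos) were small. So were those of oligodendrocyte markers (26.3 to 56.5 FPKM with AS-exos, 30.9 to 69.6 FPKM with Ctrl-exos) and of endothelial and mural markers (6.52 to 65.0 FPKM with AS-exos, 6.15 to 10.6 FPKM with Ctrl-exos). Each of the 6 neuron markers in the table was below 1 FPKM in each exosome library. The astrocyte sums did not overlap. Erythroid markers, 3 tested, had negative log2 fold changes at a median of -1.80, with sums of 0 to 13.7 FPKM with AS-exos and 5.79 to 70.8 FPKM with Ctrl-exos.

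No gene of the inflammatory lists passed with all libraries. Il1b had 886, 1188, 1521 and 563 FPKM in the MCAO+AS-exos libraries, against 465, 655, 600.3 and 364 FPKM in the MCAO+Ctrl-exos libraries, with replicate 4 inside the MCAO+Ctrl-exos range (log2 fold change 0.94 ± 0.52, limma adjusted p = 0.326). Tnf (0.50 ± 0.45), the chemokines Ccl2 (0.42 ± 0.25) and Cxcl10 (0.97 ± 1.02), and Nlrp3 (-1.31 ± 0.45), a sensor of the inflammasome, did not pass. Il6 was listed at 0 in all MCAO+AS-exos libraries and at 0 to 0.87 FPKM in the MCAO+Ctrl-exos libraries. None of 24 pro-inflammatory mediators passed with all libraries (median -0.02), and without replicate 4 Nlrp3 alone did, lower, beside 8.44% of all genes. Of 17 chemokines none passed (median 0.42), and without replicate 4 Ccl3, Ccl6 and Ccl9 were higher, beside 3.52% of all genes. Ccl3, a chemokine that attracts monocytes, had 335, 230.1, 328 and 162 FPKM with AS-exos, against 127, 125, 109 and 120.5 FPKM with Ctrl-exos, without overlap (1.07 ± 0.27, limma adjusted p = 0.0668). Of 29 genes of NF-kB and Toll-like receptor signalling none passed (median -0.10). Without replicate 4 Cd14 was higher and Irak1 and Rel were lower, beside 3.52% and 8.44% of all genes. None of 29 interferon response genes passed with or without replicate 4 (median 0.22).

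Arg1, the arginase gene of alternatively activated macrophages, missed the threshold narrowly. It had 1947, 2684, 3163 and 934 FPKM in the MCAO+AS-exos libraries, against 986, 538, 841 and 536 FPKM in the MCAO+Ctrl-exos libraries. Replicate 4 fell below the highest MCAO+Ctrl-exos value, and the log2 fold change was 1.50 ± 0.34 with an adjusted p of 0.0502, and 1.86 ± 0.30 with 0.00117 without replicate 4. Of 17 genes of alternative activation and repair none passed (median 0.09). Without replicate 4 Arg1, Chil3 and Msr1 were higher and Vegfa was lower, beside 3.52% and 8.44% of all genes. The mannose receptor gene Mrc1 had a log2 fold change of 0.30 ± 0.35. Among 25 genes of resting microglia P2ry13 alone passed (median 0.17). P2ry12 had 69.3, 47.2, 91.1 and 37.4 FPKM with AS-exos, against 17.2, 17.1, 39.8 and 40.5 FPKM with Ctrl-exos (1.11 ± 0.31, limma adjusted p = 0.0802; 0.0125 without replicate 4). Of the 25 genes of ferroptosis, inflammation and microglia named regardless of their result, Arg1, P2ry12 and Nlrp3 passed without replicate 4. The share over all genes was then 12.0%. Tmem119 had a log2 fold change of 0.17 ± 0.43 that was negative without MCAO+Ctrl-exos replicate 1. Without replicate 4, 2 of the 25 genes of resting microglia were higher and 4 were lower, beside 3.52% and 8.44% of all genes. Genes that were then lower included the transcription factor gene Jun, the efferocytosis receptor gene Mertk and Rhob. Of 26 genes of disease-associated microglia none passed (median 0.05); Spp1 (-0.20 ± 0.37), Apoe (0.25 ± 0.25) and Trem2 (0.34 ± 0.22) overlapped between the groups, and Spp1 had a positive sign without replicate 4. Without replicate 4 the cathepsin gene Ctsl, Lilrb4a, Cd68 and Lyz2 were higher and Timp2 was lower, beside 3.52% and 8.44% of all genes.

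The process lists with the lowest medians were of basic cell functions, with few members past the threshold. The cytosolic ribosome list had a median log2 fold change of -0.59 over 48 tested genes, with none called. A positive sign was found in 4 of the 48, beside 4903 of all 10846 tested genes. Without replicate 4, 25 of the 48 were lower and Rpl4 was higher, beside 8.44% and 3.52% of all genes. Ribosomal protein genes have many near-identical pseudogenes, and the assignment of shared reads is not stated. Rplp2, an acidic protein gene of the ribosomal stalk, had 1330.4, 1224, 1076 and 3018 FPKM in the MCAO+AS-exos libraries, against 2823, 4511, 2965 and 4213 FPKM in the MCAO+Ctrl-exos libraries, so that replicate 4 lay among the MCAO+Ctrl-exos values. MCAO libraries had 1791 to 3378 FPKM. The median of the list was negative under quantile normalization (-0.41), scaled totals (-0.51) and removal of trends in length and GC content (-0.55).

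The respiratory chain list had a median of -0.45 over 55 tested genes, with Uqcr11 and Ndufa1 called lower. Uqcr11, a subunit of complex III, had 576, 728, 511 and 800.1 FPKM in the MCAO+AS-exos libraries, against 1011, 1676, 1347 and 1823 FPKM in the MCAO+Ctrl-exos libraries (-1.15 ± 0.20, limma adjusted p = 0.0236). Ndufa1, a subunit of complex I, had 749, 669, 592 and 1115 FPKM with AS-exos, against 1170.5, 1969.8, 1491 and 1735 FPKM with Ctrl-exos (-1.04 ± 0.22, limma adjusted p = 0.0441). For both genes replicate 4 was the highest of its group and still below the MCAO+Ctrl-exos values. Without replicate 4, 16 members were lower and 4 were higher, beside 8.44% and 3.52% of all genes. The 4 were Sdhd, Uqcrc2, Atp5a1 and Atp5b, which encode subunits of complexes II, III and V. Of 37 mitochondrial ribosome genes none passed (median -0.14). Without replicate 4, 1 was higher and 4 were lower, beside 3.52% and 8.44% of all genes.

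Splicing factors and nuclear RNA-binding proteins had a median of -0.56 over 46 tested genes, with Cirbp called higher. Without replicate 4, 20 members were lower, among them Srrm1, Son, Luc7l3, U2af2 and Ddx17, and 5 were higher, Srsf5, Hnrnpk, Ddx5, Cirbp and Rbm3, beside 8.44% and 3.52% of all genes. Srrm1, which encodes a splicing coactivator, had 23.5, 22.5, 15.8 and 36.4 FPKM with AS-exos, against 52.5, 60.4, 41.3 and 56.1 FPKM with Ctrl-exos, without overlap (-1.11 ± 0.25, limma adjusted p = 0.0502). Chromatin and transcription regulators had the lowest median of the 30 process lists with all libraries, -0.72 over 34 tested genes. None of the 34 had a positive sign, beside 4903 of all 10846 tested genes. With trends in length and GC content removed from each library, their median of -0.34 was above those of the ribosome, splicing and respiratory chain lists. Nipbl was called, and 15 were lower without replicate 4, beside 8.44% of all genes. Ep300, the gene of the acetyltransferase p300, had 1.37, 1.60, 0.74 and 8.53 FPKM with AS-exos, against 10.1, 8.88, 8.94 and 8.81 FPKM with Ctrl-exos, where replicate 4 fell just short of the lowest MCAO+Ctrl-exos value (-1.68 ± 0.43, limma adjusted p = 0.0711). The immediate early genes, transcribed within minutes of a stimulus, had a median of -0.48 over 23 with none called. Their members did not move together. Egr1, Egr2, Dusp1 and Zfp36 were higher without overlap, beside 5.19% of all genes. Without replicate 4 Dusp1 passed higher, beside 3.52% of all genes. Then 10 others, among them Jun, Jund, Klf2, Klf4 and Ier5, passed lower, beside 8.44% of all genes. Klf4 had 19.6, 25.1, 17.4 and 84.4 FPKM with AS-exos, against 70.6, 73.2, 62.45 and 54.3 FPKM with Ctrl-exos, with replicate 4 the highest of all 8.

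**Figure D4:**
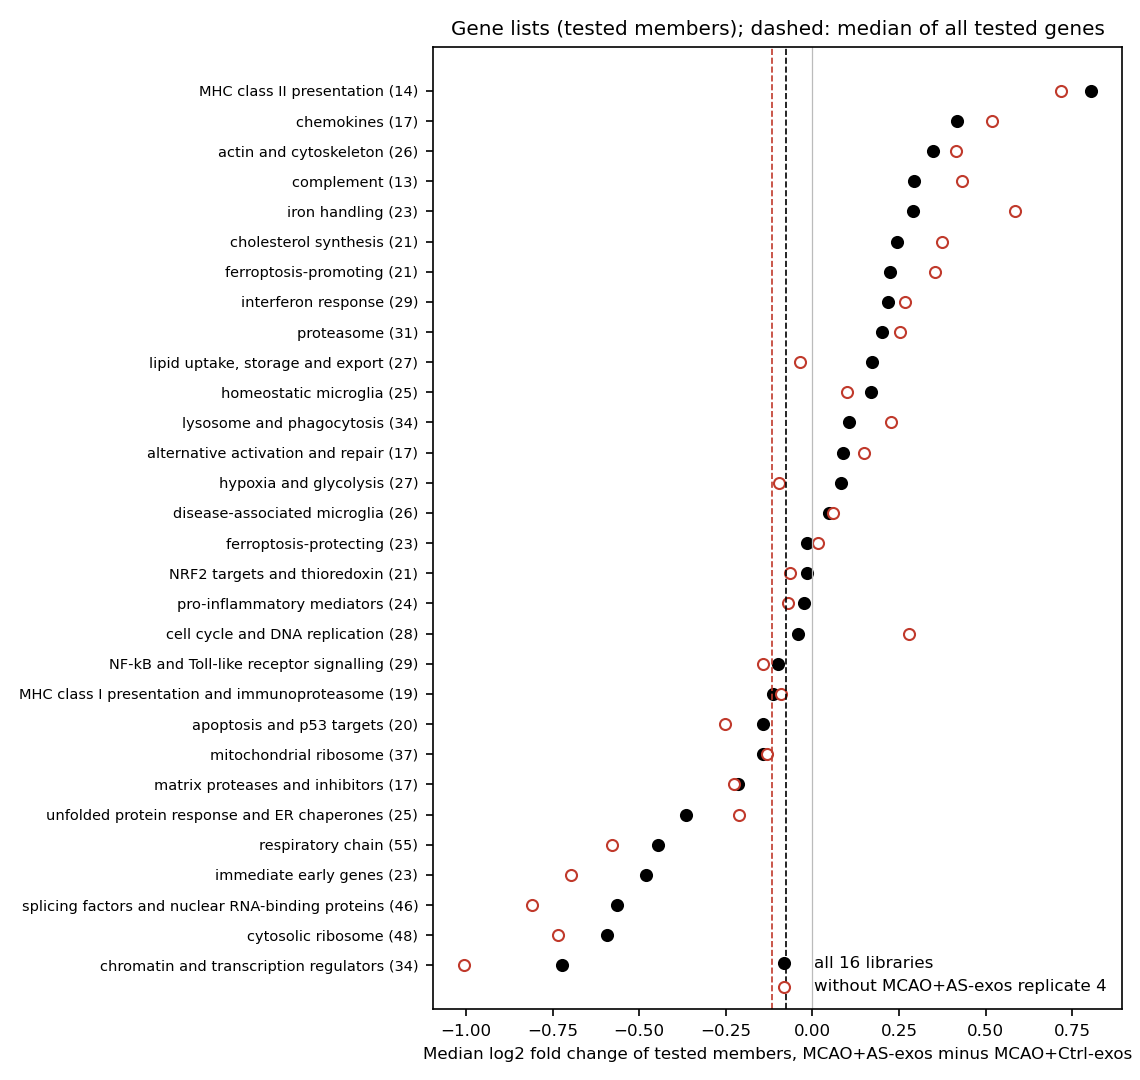
Median log2 fold change, MCAO+AS-exos minus MCAO+Ctrl-exos (x axis), of the tested members of 30 gene lists (y axis, number tested in brackets), with all 16 libraries (filled) and without MCAO+AS-exos replicate 4 (open); dashed lines are the medians of all tested genes, -0.08 and -0.12. Chromatin regulators, cytosolic ribosome, splicing factors, immediate early genes and the respiratory chain lie lowest in both, and MHC class II presentation lies highest in both.

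Transcript length and GC content were set beside these lists. In the quintile of genes with the longest transcripts, MCAO+AS-exos replicates 1 to 3 lay 0.46, 0.54 and 0.54 below the MCAO+Ctrl-exos mean in median log2(FPKM + 1), and replicate 4 lay 0.07 above it. MCAO+Ctrl-exos libraries lay between -0.14 and 0.26. In the quintile with the shortest transcripts, replicates 1 to 3 lay at -0.042, 0.001 and -0.068. In the quintile with the highest GC content, replicates 1 to 3 lay at -0.358, -0.215 and -0.319, and replicate 4 at 0.03. The median transcript length was 5911 bases for the chromatin list, 756 for the ribosome list and 623 for the respiratory chain list, against 2070 for all tested genes. With trends in length and GC content removed from each library, the chromatin median was -0.34, against -0.72 before. The median of the immediate early genes was -0.31, against -0.48 before, and that of the unfolded protein response list -0.24, against -0.37. Smaller moves were seen for the ribosome list (-0.55), splicing factors (-0.52) and the respiratory chain (-0.43), against -0.59, -0.56 and -0.45 before. The median of all genes was then 0.02, and 51 genes passed, 24 higher and 27 lower, among them 23 of the 28 called genes that have a length. Without replicate 4 and with the trends removed, the medians were -0.43 for the chromatin list and -0.44 for the immediate early genes. They were -0.715 for the ribosome list and -0.49 for the respiratory chain list. Whether the trends come from the cells or from the libraries was not tested.

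**Figure D5:**
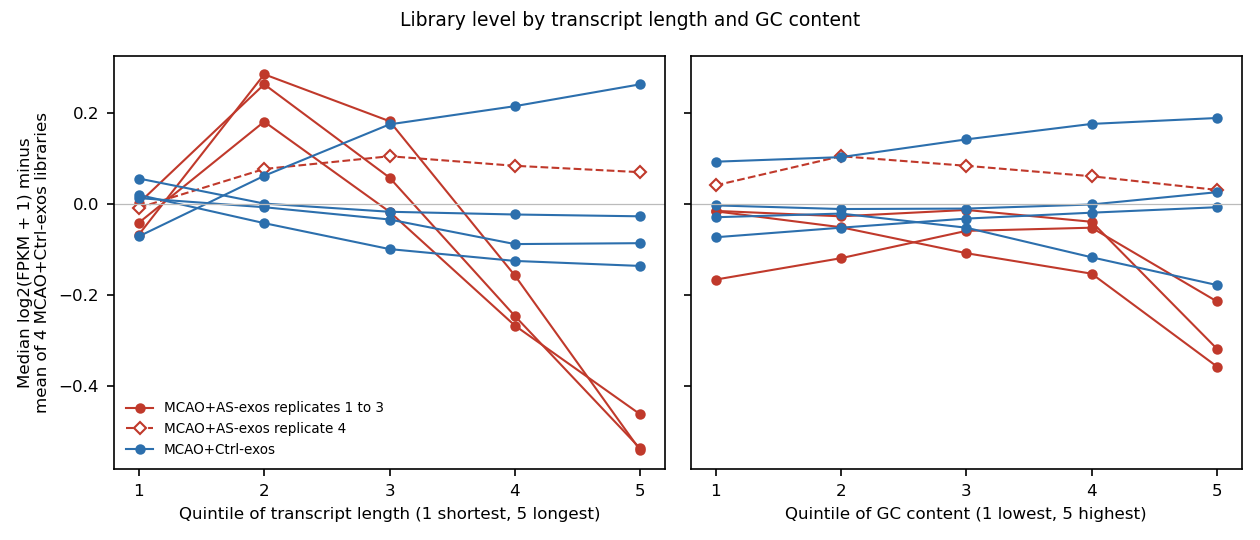
Median log2(FPKM + 1) of each library minus the mean of the 4 MCAO+Ctrl-exos libraries (y axis) in quintiles of genes by transcript length and by GC content (x axes); red lines are MCAO+AS-exos, dashed for replicate 4, and blue lines are MCAO+Ctrl-exos. Replicates 1 to 3 drop in the longest quintile to between -0.54 and -0.46, while replicate 4 is at 0.07.

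The process lists with the highest medians with all libraries were MHC class II presentation, chemokines, and actin and cytoskeleton; without replicate 4, iron handling (0.59) was above chemokines (0.52) and complement (0.43) above actin and cytoskeleton (0.415). MHC class II genes, which present antigen to CD4+ T cells, had a median of 0.80 over 14 tested genes, with none called. Of the 14, 12 were positive, beside 4903 of all 10846 tested genes. H2-Eb1, H2-DMb2, H2-Ob and the invariant chain gene Cd74 were higher without overlap, 4 of 14 beside 5.19% of all genes. Cd74 had 2939, 4072, 3157 and 2302 FPKM with AS-exos, against 945, 1826, 2091 and 876 FPKM with Ctrl-exos, and here replicate 4 stayed above the MCAO+Ctrl-exos values (1.20 ± 0.40, limma adjusted p = 0.115). Ctss, which encodes the protease that trims the invariant chain, was the only member higher without replicate 4, beside 3.52% of all genes. Of 26 actin and cytoskeleton genes 8 were higher without overlap (beside 5.19% of all genes) and none lower, and none passed (median 0.35). Cfl1, which encodes the actin-severing cofilin, had 3529, 3615, 3495 and 1841 FPKM with AS-exos, against 1761, 1577, 1635 and 1409 FPKM with Ctrl-exos (0.92 ± 0.27, limma adjusted p = 0.0872). Without replicate 4, Cfl1, Pfn1, Arpc5, Capza2 and Anxa1 were higher and Myl6 and Myh9 were lower, beside 3.52% and 8.44% of all genes.

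Among 34 genes of lysosome and phagocytosis Ctsc passed (median 0.11), and without replicate 4, 6 were higher and 5 were lower, beside 3.52% and 8.44% of all genes. Cd68, the gene of a lysosomal membrane protein of macrophages, had 2919, 2791, 2754 and 1441 FPKM with AS-exos, against 1291, 1032, 1404 and 1207 FPKM with Ctrl-exos (0.96 ± 0.24, limma adjusted p = 0.0672). Its groups were apart by a small gap between replicate 4 and the highest MCAO+Ctrl-exos library. Of 13 complement genes none passed (median 0.29), and C1qb, C3ar1, C5ar1 and Cfp were higher without overlap, 4 of 13 beside 5.19% of all genes; without replicate 4, C1qb and C5ar1 passed higher and Itgam passed lower. C5ar1, the receptor gene of complement fragment C5a, had 338, 429, 522 and 172 FPKM with AS-exos, against 145, 96.1, 132 and 92.6 FPKM with Ctrl-exos (1.56 ± 0.39, limma adjusted p = 0.0659). Of 27 genes of lipid uptake, storage and export none passed (median 0.17, and -0.04 without replicate 4); Abcg1, Lipa and Msr1 were higher and Apoc1, Plin3, Fabp3, Fabp4 and Dgat1 were lower without overlap, beside 5.19% and 5.02% of all genes. Without replicate 4, Lipa, Msr1 and Pnpla2, the gene of a triglyceride lipase, passed higher and Apoc1 and Fabp4 passed lower. Of 21 cholesterol synthesis genes (median 0.25), 31 proteasome genes (0.20), 19 genes of MHC class I presentation (-0.11), 27 of hypoxia and glycolysis (0.08), 20 of apoptosis and p53 targets (-0.14), 28 of cell cycle and DNA replication (-0.04) and 17 matrix proteases and inhibitors (-0.21) none passed with all libraries. Without replicate 4, Idi1 of cholesterol synthesis, 3 proteasome genes (Psmc1, Psmd6 and Psmd14) and Pdia3 of the class I list passed higher. Of the hypoxia and glycolysis genes, Gapdh, Bnip3 and Bnip3l then passed higher and Vegfa, Hk2 and P4ha1 lower. Casp8 passed higher and Bak1, Bcl2 and Mcl1 lower among the apoptosis genes. Mmp8 passed higher and Mmp14, Adam17 and Timp2 lower among the matrix genes, while none of the cell cycle list passed. Over all tested genes, 3.52% passed higher and 8.44% lower without replicate 4. Positive signs were found in 26 of the 31 proteasome genes, beside 4903 of all 10846 tested genes.

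Levels without exosomes were set beside the called genes; the contrasts with MCAO share the MCAO libraries. On the log2(FPKM + 1) scale the MCAO mean lay nearer to MCAO+AS-exos for 12 of the 31 genes and nearer to MCAO+Ctrl-exos for 19, and on the FPKM scale for 9 and 22. Maf averaged 30.3 ± 23.2 FPKM with AS-exos, 83.7 ± 7.49 FPKM with Ctrl-exos and 82.9 ± 8.59 FPKM in MCAO (SD, n = 4 each), so that AS-exos stood apart. Ctsc averaged 449 ± 151 FPKM with AS-exos, 135 ± 24.9 FPKM with Ctrl-exos and 151 ± 32.8 FPKM in MCAO, the same pattern. Uqcr11 averaged 654 ± 133 FPKM with AS-exos, 1464 ± 362 FPKM with Ctrl-exos and 559 ± 47.8 FPKM in MCAO, so that Ctrl-exos stood apart (log2 fold change of Ctrl-exos against MCAO 1.36, limma adjusted p = 0.00625). Cd33 averaged 65.1 ± 29.7 FPKM with AS-exos, 11.4 ± 5.22 FPKM with Ctrl-exos and 29.8 ± 11.8 FPKM in MCAO, which lay between. Against MCAO, 666 genes (6.14%) passed for MCAO+AS-exos, 115 higher (1.06%) and 551 lower (5.08%). Without replicate 4 these were 2024 genes (18.7%), 422 higher (3.89%) and 1602 lower (14.8%). For MCAO+Ctrl-exos against MCAO, 8 genes (0.0738%) passed, 5 higher (0.0461%) and 3 lower (0.0277%).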

How the data were processed

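The authors deposited values per gene symbol, read here as FPKM, in a table of 13982 genes that equals the 16 files of single libraries. The unit was inferred from the naming of RSEM 1.3.1 and from totals that differ between libraries; TPM of part of the genes cannot be told apart from it. The submitters' processing notes also name HISAT2, Bowtie2 and the build GRCm39.p6, without roles; the annotation, strand use and filters are not given in the sources used here. Depth is unknown, and low values show no steps of single reads, so no counting error is given.

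A gene was tested if it reached 1 FPKM in 4 or more of the 16 libraries (10846 genes), as log2(FPKM + 1), a scale that understates changes of low genes. One limma 3.58.1 model (R 4.3.3) of 4 group means over 16 libraries was fitted with lmFit and eBayes (trend, robust), two-sided, with Benjamini-Hochberg adjustment over all tested genes and a threshold of 0.05. It was tested on simulated data. Tables and figures were made with Python 3.11.15, pandas 2.3.3 and matplotlib 3.10.9. Lengths, GC content and overlaps came from GENCODE M21 (GRCm38), by symbol, for 10622 of the tested genes.

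Members, gene lists and tests were chosen with earlier results of these data known. Named genes are the 10 largest fold changes per direction among abundant called genes without overlap, genes called in all 8 fits that leave out a library, up to 3 called members per list, and 26 genes of ferroptosis, inflammation and microglia, of which Nos2 was not analysed here. Other genes, including list members given as examples and all genes called only without MCAO+AS-exos replicate 4, were chosen after their values were seen. Alternatives changed the variance trend, normalization, filter, pseudocount, weights, libraries in the fit, length and GC trends, fold threshold and a replicate block; 4 combinations without replicate 4, and the contrast with MCAO without it, were added after seeing the data. Residuals of MCAO+AS-exos and MCAO+Ctrl-exos libraries with equal replicate numbers correlated across genes at -0.148 to 0.0396. Whether libraries of equal number were paired is not known, and these values cannot decide it.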

Additional observations from a re-analysis of the deposited data

Results flagged for a closer look

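In 8 of 122 sets of 4 values, the highest or lowest library was separated from the nearest other by a gap, as a part of the whole range, above the 95% limit of Dixon's test; chance gives about 1 in 20 sets. In 4 of the 8 the library was MCAO+AS-exos replicate 4. It was highest for Nipbl (gap 0.970 of the range), Hras (0.949) and Ccdc152 (0.940) and lowest for Ctsc (0.849), and in each of these 4 genes it lay towards the MCAO+Ctrl-exos values. Ccdc152 was added to the sets after its values were seen, so its place among the 8 is no test. Among MCAO+Ctrl-exos libraries, replicate 1 was lowest for Trappc4 (0.953), with 227 FPKM against 291 to 295 FPKM in the other 3, and lowest for the monocyte marker sum (0.848). It was highest for the B cell marker sum (0.834). Replicate 3 was highest for Lpcat3 (0.832).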

How the results depend on the processing

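The count of 31 called genes (17 higher, 14 lower, 8 of them list members) was within 1.5 times with scaled totals (39), no filter (22, with 7 lower and 3 list members), a pseudocount of 0.1 (25, with 5 list members) and a 2-fold threshold (30). It was 16 without the variance trend (10 higher, 6 lower, 2 list members), 88 with quantile normalization (43, 45, 23), 93 at a minimum of 5 FPKM (37, 56, 22), 9 in the fit of the 8 exosome libraries (6, 3, 0), 51 with length and GC trends removed (24, 27, 10) and 3266 with quality weights per library (1226, 2040, 356), which gave MCAO+AS-exos replicate 4 a weight of 0.320 and replicates 1 to 3 weights of 2.93 to 6.27. With the replicate block in the fit of 8 it was 48 (26, 22, 11); the numbers share no known pairing. Leaving out 1 library gave 1 to 1297 genes (1 to 382 higher, 0 to 915 lower, 0 to 175 list members), and the fit lacking both MCAO+AS-exos replicate 4 and MCAO+Ctrl-exos replicate 1 gave 1088 (356, 732, 187). Replicate 4 left out together with quantile normalization gave 1092 (385, 707, 158), with length and GC trends removed 1049 (395, 654, 158), with scaled totals 1045 (388, 657, 161) and in a fit of 7 exosome libraries 2044 (770, 1274, 231); these 4 were chosen after seeing the data. MCAO+AS-exos against MCAO gave 666 called genes with all libraries and 2024 without replicate 4, an alternative also chosen after seeing the data. For these differences the cause was not tested. The 31 genes kept their sign in every alternative that tested them. Among the 25 named genes that were not called, signs turned for 4. Spp1 ranged from -0.362 to 0.071 over the fits that left out 1 library and was at 0.018 with weights, 0.011 without both libraries, and 0.006, 0.156 and 0.071 without replicate 4 in combination with quantile normalization, scaled totals and 7 libraries. Tmem119 ranged from -0.040 to 0.360 over the fits that left out 1 library, and was at -0.074 with weights and -0.114 without both. Without replicate 4, Gpx4 was at 0.046 with quantile normalization and Slc7a11 at 0.209 with trends removed. Of 504 values of the 21 named called genes 336 stayed past the threshold and 168 did not; of 599 values of the 25 others 38 passed. Depth is unknown, and 4 libraries per group limit the precision.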
